A study of Mus musculus with 8 samples.

Results

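The 40 Mb of mouse chromosome 17 centred on Tnfrsf12a, the gene of the cytokine receptor Fn14, were examined for differences in accessible chromatin between brains with and without that receptor. Peaks of all 8 deposited libraries were merged where they overlapped, which gave 443327 regions in the genome, and 5252 of them had their centre within 20 Mb of the gene, on either side (build mm10). Of the other regions, 9426 lay on the rest of chromosome 17 and 421156 on the other autosomes. The window holds 711 protein-coding genes.

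The study profiled accessible chromatin with ATAC-seq, where Tn5, a transposase, puts adapters into open DNA. Fn14 KO mice and their WT littermates were untreated, and coronal brain sections that held cortex, hippocampus and dLGN (dorsal lateral geniculate nucleus, a visual nucleus of the thalamus) were taken at postnatal day 27, with 2 libraries per genotype. Microdissected dLGN came from mice aged 32 days that had eaten PLX5562 chow, given to remove microglia, or control chow from postnatal day 20, with 2 libraries per diet. All groups had the strain background C57Bl/6J per the labels. The construction of the Fn14 KO allele, the cell line it was made in, the number of backcrosses and the sex of the mice were not stated in any source at hand. Nothing in the labels says whether the 2 libraries of a group came from separate mice, so the spread between them may be technical.

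A gene is usually targeted in embryonic stem cells of one mouse strain and then bred into another. Recombination seldom separates the targeted gene from its neighbours, so a stretch of donor-strain DNA around it can remain after many crosses, and KO and WT littermates can then differ at variants near the gene as well as in the gene itself. The comparison asked whether the KO and WT libraries differed more around Tnfrsf12a than elsewhere. This stretch of chromosome 17 is known for the t complex, a set of linked genes that affects transmission through sperm, and for the major histocompatibility complex (MHC), whose genes present antigens to T cells. It also holds clusters of zinc finger, vomeronasal receptor and olfactory receptor genes, whose members resemble one another in sequence.

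The promoters on which the comparison turns are shown first, as the 250 bases before each transcription start in RefSeq (GRCm38.p6), 5′ to 3′ on the gene's strand. Tnfrsf12a (chr17:23677450-23677699, minus strand) is the targeted gene. Zfp994 (chr17:22225615-22225864, minus strand) encodes a zinc finger protein, and Gm7072 (chr17:22314843-22315092, minus strand) is a predicted gene near it. Rgmb (chr17:15826567-15826816, minus strand) encodes a co-receptor for bone morphogenetic proteins, and Gm51425 (chr17:17004866-17005115, plus strand) is a predicted gene. Zfp994, Gm7072, Rgmb and Gm51425 had the largest rank shifts between genotypes among window regions within the first 5000 ranks of a section library. Ppp2r1a (chr17:20945204-20945453, plus strand), the scaffold subunit of protein phosphatase PP2A, had the strongest region present in all 8 libraries. Capitals mark the GC box (GGGCGG, or CCGCCC on the other strand) and the CCAAT box (CCAAT, or ATTGG on the other strand).
Tnfrsf12a: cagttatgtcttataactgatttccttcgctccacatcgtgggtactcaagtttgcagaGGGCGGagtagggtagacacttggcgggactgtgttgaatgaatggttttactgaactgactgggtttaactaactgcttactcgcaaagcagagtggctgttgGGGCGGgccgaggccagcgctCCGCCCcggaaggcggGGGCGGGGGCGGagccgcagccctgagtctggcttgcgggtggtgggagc
Zfp994: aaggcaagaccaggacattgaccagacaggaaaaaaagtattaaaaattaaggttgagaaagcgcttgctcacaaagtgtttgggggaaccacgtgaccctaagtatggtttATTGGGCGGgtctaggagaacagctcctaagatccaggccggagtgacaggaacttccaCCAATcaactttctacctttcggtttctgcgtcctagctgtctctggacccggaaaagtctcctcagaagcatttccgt
Gm7072: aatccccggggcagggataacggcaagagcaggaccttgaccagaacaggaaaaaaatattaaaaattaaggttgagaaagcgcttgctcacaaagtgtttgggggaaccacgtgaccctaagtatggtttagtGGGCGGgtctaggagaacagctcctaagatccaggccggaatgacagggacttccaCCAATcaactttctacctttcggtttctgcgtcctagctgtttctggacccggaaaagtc
Rgmb: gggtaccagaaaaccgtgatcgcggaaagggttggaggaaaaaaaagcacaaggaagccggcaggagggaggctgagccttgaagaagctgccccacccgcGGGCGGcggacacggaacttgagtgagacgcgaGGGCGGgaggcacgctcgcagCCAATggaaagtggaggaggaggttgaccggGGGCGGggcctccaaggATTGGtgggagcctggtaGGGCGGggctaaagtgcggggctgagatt
Gm51425: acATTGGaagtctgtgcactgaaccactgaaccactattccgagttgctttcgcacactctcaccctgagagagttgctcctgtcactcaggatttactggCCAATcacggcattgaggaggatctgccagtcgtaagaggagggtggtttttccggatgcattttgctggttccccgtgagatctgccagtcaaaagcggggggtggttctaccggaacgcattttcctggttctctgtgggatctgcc
Ppp2r1a: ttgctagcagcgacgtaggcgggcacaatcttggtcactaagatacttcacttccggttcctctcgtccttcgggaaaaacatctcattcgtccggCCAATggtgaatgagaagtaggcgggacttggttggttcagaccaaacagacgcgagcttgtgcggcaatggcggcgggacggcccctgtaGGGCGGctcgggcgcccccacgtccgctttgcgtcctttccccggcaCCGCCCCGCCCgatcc

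Of 32851 mouse promoters of this length, 32.7% held a GC box and 33.9% a CCAAT box. The Tnfrsf12a promoter held 5 GC boxes and no CCAAT box. The Rgmb promoter held 4 GC boxes and 2 CCAAT boxes, and the Gm51425 promoter held 2 CCAAT boxes and no GC box. The Zfp994 and Gm7072 promoters were 83.0% identical (224 of 270 aligned positions), whereas the other 14 pairs of these promoters had 49.1% to 54.0% identity, and values at Zfp994 and Gm7072 are uncertain as far as reads of such similar copies cannot be placed. None of the 6 held a TATA box (TATAAA), an AP-1 site (TGACTCA) or a CRE (TGACGTCA) on either strand in these 250 bases.

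The deposited lists give for each peak a −log10 p, which grows with sequencing depth, so values were ranked within a library and every library was cut to its 192168 strongest merged regions, the number in the shortest list. All 8 libraries had regions at marker genes of neurons (Rbfox3, Snap25, Syt1), thalamus (Tcf7l2, Foxp2, Lef1, Gbx2), cortex (Neurod6, Tbr1) and oligodendrocytes (Mbp, Mog). Of the 22 marker genes of neurons, cortex, hippocampus, thalamus, astrocytes, oligodendrocytes and microglia, Gfap had none in control chow 2 and Tmem119 had none in control chow 1. Over the 4 thalamic genes the kept regions summed to 80 and 68 in KO and 98 in each WT library. Foxp2 had 27 in each KO library against 41 and 48 in WT, and Lef1 had 17 in each against 23 and 22, whereas Tcf7l2 and Gbx2 overlapped. Over the 3 neuronal genes the counts summed to 223 and 196 in KO and 182 and 149 in WT. The hippocampal sums were 82 and 86 in KO and 73 and 79 in WT, and the astrocyte sums 27 and 24 against 23 and 22. Those of cortex, oligodendrocytes and microglia overlapped. In all, KO lay above WT at 4 of the 22 genes, below at 3 and overlapped at 15, and the part of this in the results was not tested. The same share over all genes was not computed. These counts therefore cannot be told apart from the spread between single libraries. Read depth is unknown. The KO lists lay just under the pipeline's limit of 300000 peaks, with 299822 and 299816 peaks against 248989 to 285771 in the other 6 libraries.

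The window held a larger share of the regions in the KO libraries than in the other libraries. KO 1 had 2898 regions in the window, 1.61% of its autosomal regions, and KO 2 had 2487 (1.39%). WT 1 had 2071 (1.19%) and WT 2 had 2054 (1.17%). Both KO libraries lay above both WT libraries, and the 4 dLGN libraries lay below all of these with 1.04% to 1.12%. The genotype means were 1.499% ± 0.153 for KO and 1.18% ± 0.0160 for WT (SD, n = 2 each), a difference of 0.317 points that was the largest in size among the 3 ways to divide the 4 section libraries into pairs (exact two-sided permutation p = 0.33, the smallest possible). On the rest of chromosome 17 the shares of KO (2.16% and 2.03%) and WT (2.09% and 1.98%) overlapped. The exact permutation test of 2 libraries against 2 cannot go below 0.33, and in bulk tissue a different mix of cells and different accessibility within cells cannot be told apart.

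**Figure D1:**
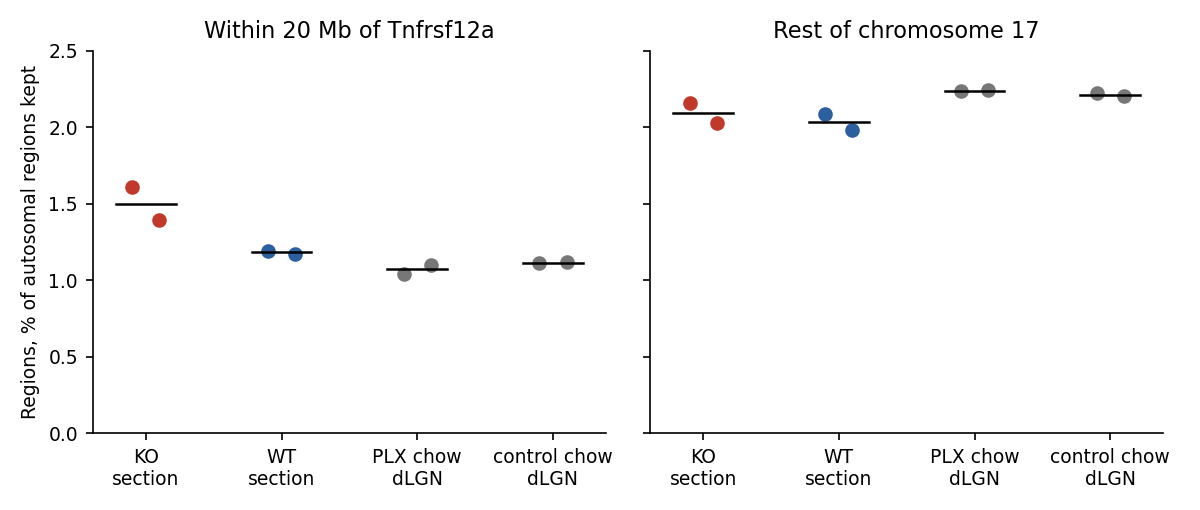
Share of each library's kept autosomal regions (y axis, %) that lay within 20 Mb of Tnfrsf12a (left) and on the rest of chromosome 17 (right), by group (x axis). Points are libraries and bars are means of 2; the KO points of 1.61% and 1.39% lie above all others on the left, whereas KO and WT overlap on the right.

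Regions found in both libraries of one genotype and in neither library of the other were called KO-only or WT-only. Over all autosomes 5.96% of the 290145 regions found in at least 1 section library were of either kind, with 3.69% KO-only and 2.27% WT-only. In the window 3914 regions were found in at least 1 section library, of which 282 (7.20%) were KO-only and 59 (1.51%) were WT-only. The sum of both kinds was 8.71% (95% Wilson interval 7.87% to 9.64%, which treats regions as independent and covers counting error only). It was 5.84% on the rest of chromosome 17, with 3.76% KO-only and 2.08% WT-only, and 5.93% on the other autosomes, with 3.64% and 2.29%. KO-only regions were thus more frequent and WT-only regions less frequent in the window than outside it. The window exceeded the other autosomes by 2.79 points, and the other 2 divisions of the 4 libraries gave −1.57 and −0.52 points (exact two-sided permutation p = 0.33, the smallest possible). Single libraries moved it by more than 1.5 times, to 0.274 points without WT 2, 0.337 without WT 1 and 9.05 without KO 2.

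The order of the shared regions shifted in the same direction. A total of 1298 window regions were found in all 4 section libraries. Over all autosomes the ranks of KO and WT did not overlap at 40.0% of such regions, with KO ranking higher at 19.8% and WT at 20.2%. In the window both KO libraries ranked higher than both WT libraries at 475 regions (36.6%), and both WT libraries ranked higher at 156 (12.0%). On the rest of chromosome 17 the shares were 19.7% and 20.8% of 2050 regions, and on the other autosomes 19.6% and 20.3%. The share of regions ranked apart in the window exceeded that on the other autosomes by 8.75 points, and the other 2 divisions gave −5.73 and −3.01 points (exact two-sided permutation p = 0.33). This difference fell to 1.49 points without WT 2, to 3.51 points without KO 1 and to 4.04 points without WT 1, so 1 library can move it by more than 1.5 times.

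Overlap in base pairs differed between genotypes too. In the window the Jaccard index, the shared length divided by the joint length, was 0.558 ± 0.0163 within genotypes (SD, 2 pairs) and 0.502 ± 0.0234 between genotypes (SD, 4 pairs). The gap of 0.0560 compares with 0.0124 on the rest of chromosome 17 and 0.0121 on the other autosomes. The KO lists covered 1.36 and 1.16 Mb of the window and the WT lists 0.896 and 0.890 Mb, and lists of unequal length have a lower ceiling for this index. The excess of the window over the other autosomes was 0.0439, against −0.0313 and −0.0127 for the other divisions (exact two-sided permutation p = 0.33). It was 0.0283 with regions reduced to 200 bp around each summit.

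The 4 dLGN libraries, which carry no Fn14 KO allele per the labels, gave a background for the same measures. Over all autosomes 4.33% of regions were found in both libraries of 1 diet and neither of the other, with 2.02% only with PLX5562 chow and 2.31% only with control chow. In the window 43 of 2893 regions were found only with PLX5562 chow (1.49%) and 70 only with control chow (2.42%), a sum of 3.91% that lay below the 4.33% of the other autosomes. Ranks did not overlap at 31.8% of the autosomal regions found in all 4 dLGN libraries, with PLX5562 higher at 15.6% and control chow at 16.2%. The PLX5562 libraries ranked higher at 12.0% of such window regions and the control libraries at 17.8%. The excess of PLX5562-ranked over control-ranked regions was −5.74 points in the window. With the autosomes cut into 50 stretches of the window's length, the median was −0.208 points and only 1 stretch lay lower. Across these stretches that excess had a Spearman correlation of −0.46 with genes per Mb, given as a description. The gap between diets in the Jaccard index was −0.0002 in the window.

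Within 0.1 Mb of the targeted gene none of 27 regions was KO-only. Among bins of distance from the gene, the share of regions ranked apart was highest there, over only 12 regions. At Tnfrsf12a (chr17:23675445-23677449) the region over the promoter (chr17:23677365-23677642) was found in neither KO library, and its −log10 p was 13.6 and 8.02 in WT, 10.0 and 19.4 with PLX5562 chow and 24.5 and 25.3 with control chow. Within 100 kb of the gene, which holds 15 protein-coding genes, 27 regions were found in a section library. The Tnfrsf12a promoter was the only separated region among these, and no KO-only region lay there. Next to the gene, the region over the promoters of Hcfc1r1 and Thoc6, a component of the THO complex that acts in messenger RNA export (chr17:23673184-23674379), ranked 1001 and 1621 in KO and 3355 and 2914 in WT. Between 0.1 and 0.5 Mb from the gene 3 of 62 regions were KO-only (4.84%), and between 0.5 and 1 Mb 5 of 86 (5.81%). Between 1 and 2 Mb 9 of 177 were KO-only (5.08%), and between 2 and 5 Mb 50 of 624 (8.01%). These shares lay above the 3.69% of all autosomes, but the bins are gene-rich. From 0.1 to 2 Mb their regions had on average 43.0 to 47.2 protein-coding genes within 500 kb. On the other autosomes 5.46% of regions with more than 30 such genes were KO-only. The 4.84%, 5.81% and 5.08% lay near that value. Ranks of KO and WT did not overlap at 58.3% of the 12 regions found in all 4 section libraries within 0.1 Mb, at 55.2% of 29 and 55.6% of 36 in the next 2 bins, and at 44.8% to 51.0% in each bin from 1 to 20 Mb. They did not overlap at 42.8% of 276 regions between 20 and 25 Mb. The bins nearest the gene are thinly filled, and their directions were mixed, with KO ranking higher at 9 and WT at 7 of 29 regions between 0.1 and 0.5 Mb. In 2-Mb bins a share of 58.3% was also reached far from the gene, at 84 regions 10 to 12 Mb away on the centromeric side. With only 5 Mb either side of the gene, the share ranked apart exceeded that of the other autosomes by 11.9 points.

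Along the window the share of KO-only regions was high on both sides of a gap near the gene. From 20 to 10 Mb on the centromeric side the KO-only share was 7.94% and then 7.14% per 5 Mb, and KO ranked higher at 39.1% and 40.0% of the regions in all 4 libraries. From 10 to 5 Mb it was 7.32%. The 5 Mb next to Tnfrsf12a on that side held only 71 regions, of which 1 was KO-only and 2 were WT-only, and WT ranked higher there at 34.0% of 47 regions against 17.02% for KO. On the telomeric side the KO-only share was 7.29%, 8.86% and 6.19% in the first 3 blocks of 5 Mb. In the last block (15 to 20 Mb) KO-only and WT-only regions were equal in number, with 5 each of 192. Beyond the window the next 5 Mb had 6.71% KO-only regions, and the 5 Mb after that 3.69%, near the 3.69% of all autosomes.

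**Figure D2:**
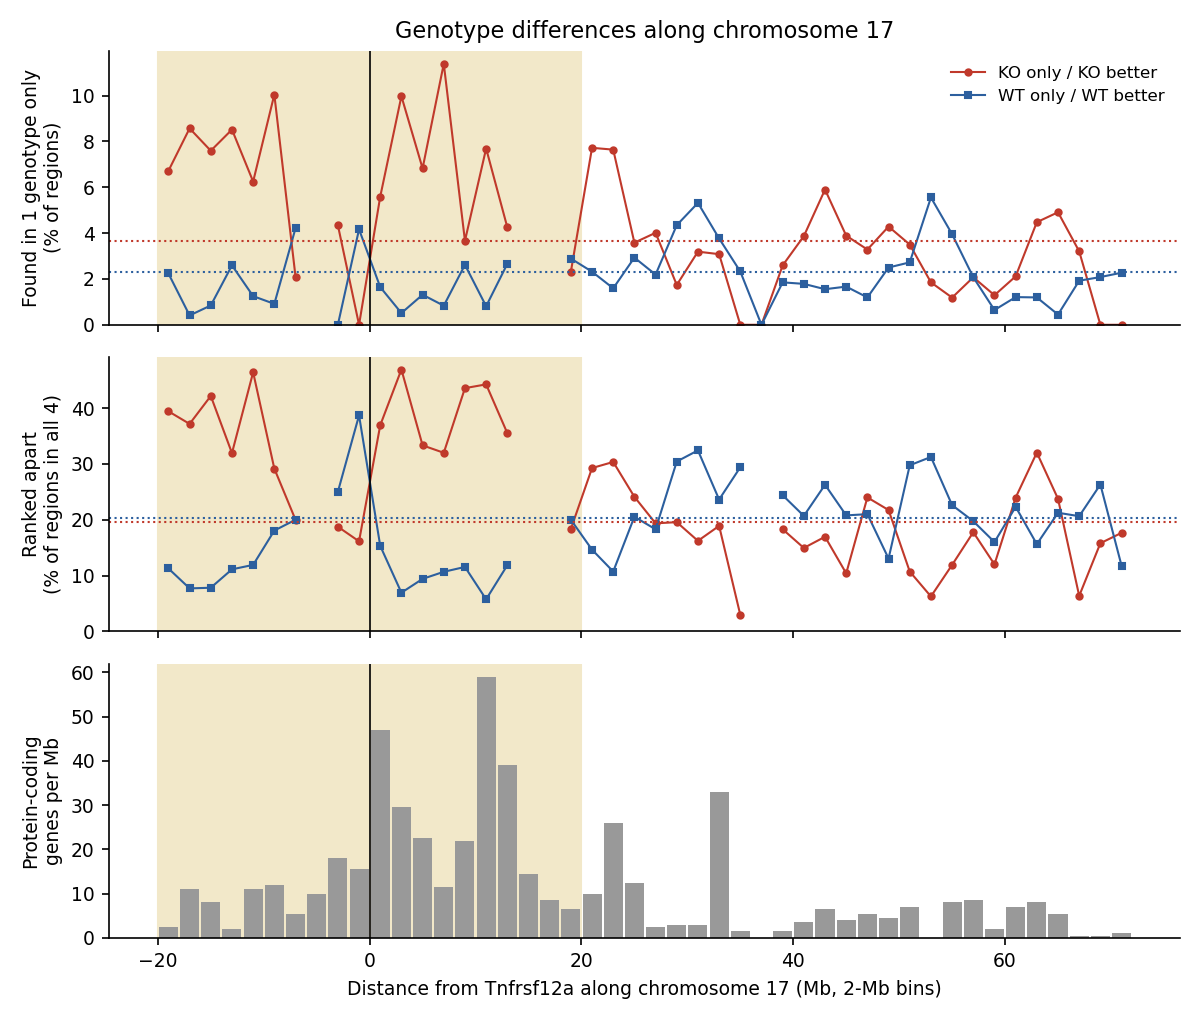
Genotype differences in 2-Mb bins by distance from Tnfrsf12a (x axis, Mb; shaded, 20 Mb either side): top, KO-only and WT-only regions (%); middle, regions in all 4 section libraries ranked higher in both KO or both WT libraries (%); bottom, protein-coding genes per Mb. Dotted lines are the values of the other autosomes, and bins with fewer than 20 regions (top) or 10 ranked regions (middle) are left blank; KO lies above WT in most shaded bins, with exceptions in the 8 Mb before the gene and in the last bin.

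Gene density moved with these shares, and its part in the result was not tested. Window regions had on average 19.7 protein-coding genes within 500 kb, against 8.99 on the other autosomes. When the autosomes were cut into 50 stretches of 40 Mb, the window was the first of 50 for the share of KO-only regions and the second for genes per Mb, with 17.8. Across these 50 stretches the excess of KO-ranked over WT-ranked regions had a Spearman correlation of 0.82 with genes per Mb, given as a description, since all stretches come from the same 4 libraries. Among 349 stretches of 40 Mb taken every 5 Mb and not touching the window, 20 had at least as high a share of KO-only regions, on chromosomes 4, 5, 7, 9 and 11. The highest, on chromosome 5 from 108676000 to 148676000, had 9.86% with 13.9 genes per Mb. In the excess of KO-ranked over WT-ranked regions, 10 stretches reached the window's 24.6 points.

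**Figure D3:**
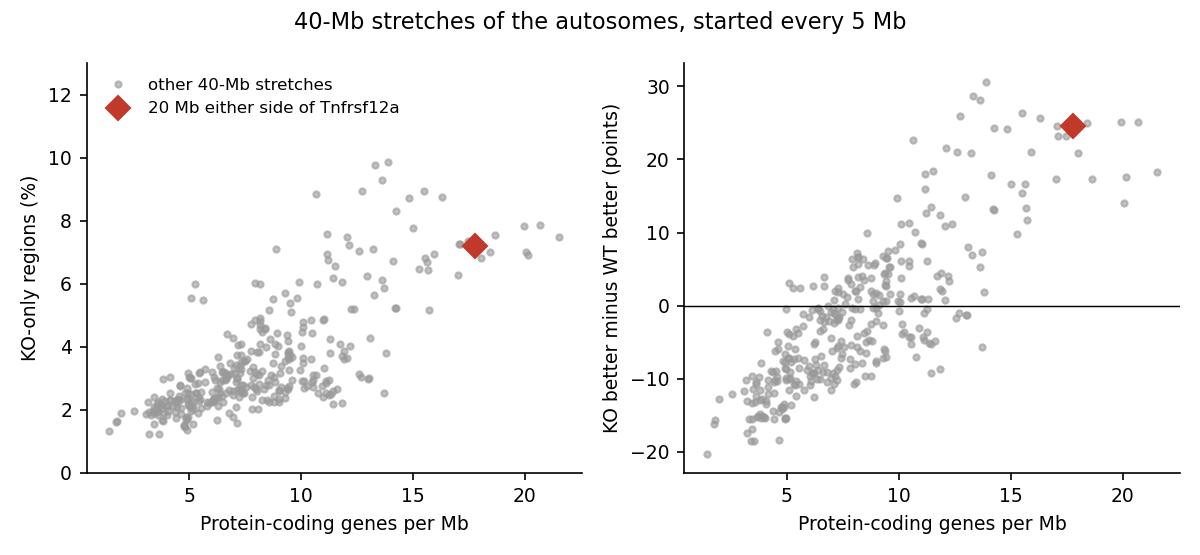
Protein-coding genes per Mb (x axis) against the share of KO-only regions (left, %) and the excess of regions ranked higher in KO over those ranked higher in WT (right, points) for 40-Mb stretches taken every 5 Mb. The window (diamond, 7.20% and 24.6 points at 17.8 genes per Mb) lies in the upper range of the gene-rich stretches, and neighbouring points overlap in sequence.

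Within classes of gene density the window had a larger share of regions ranked higher in KO than the other autosomes, which is a description and no test. Where at most 5 genes lay within 500 kb, KO ranked higher at 34.8% of 201 window regions and at 14.3% of the other autosomal regions. With 11 to 20 genes the shares were 36.6% and 24.6%, and with more than 30 genes 39.1% and 30.9%. For KO-only regions the values were 7.02% and 2.78% in the class with the fewest genes, and 5.72% and 5.46% in the class with the most. With 21 to 30 genes the KO-only share was 7.28% in the window, 5.58% on the other autosomes and 7.51% on the rest of chromosome 17. Weighting the other autosomes to the gene densities of the window gave 4.34% KO-only regions, against 7.20% in the window, and 24.4% ranked higher in KO, against 36.6%. The window difference was thus large in its gene-poor regions and small, for KO-only regions, in its gene-rich ones.

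**Figure D4:**
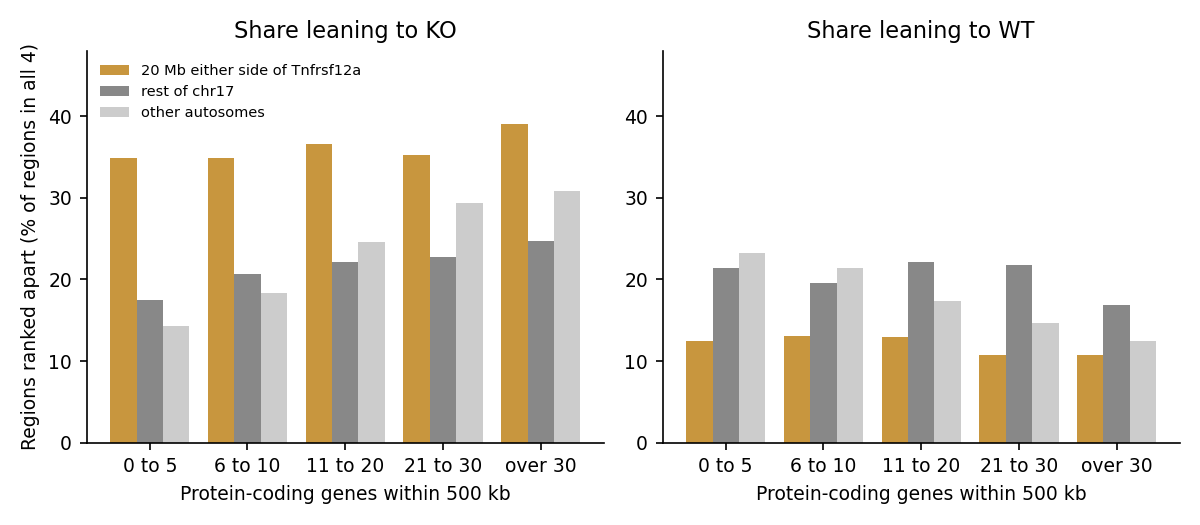
Regions found in all 4 section libraries that ranked higher in both KO (left) or both WT (right) libraries (y axis, %), by the number of protein-coding genes within 500 kb (x axis), for the window, the rest of chromosome 17 and the other autosomes. In the window the KO share is 34.8% to 39.1% in every class, whereas on the other autosomes it runs from 14.3% to 30.9%.

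Base composition gave a further description at promoters, where sequence was at hand. Of 335 window regions at a promoter that were found in all 4 section libraries, KO ranked higher at 121 (36.1%) and WT at 29 (8.66%), against 21.6% and 20.4% on the other autosomes. In promoters with 55% to 65% G and C the share ranked higher in KO was 40.1% in the window and 24.4% elsewhere, and above 65% it was 28.3% and 17.9%. GC boxes were held by 64.3% of the 157 promoters over regions ranked higher in KO, by 52.4% of the 42 over regions ranked higher in WT and by 57.9% of the 266 over regions whose ranks overlapped. CCAAT boxes were held by 50.3%, 23.8% and 39.1%. The promoters of these 3 classes lay over only 120, 29 and 185 regions, so some regions count more than once, and the differences were not tested.

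The KO-only regions of the window were mostly weak and distal. Their median −log10 p in the weaker KO library was 5.00, 64.2% lay inside a protein-coding gene and 2.13% at a promoter. Of the 282, 194 (68.8%) were found in no dLGN library and 24 (8.51%) in all 4. On the other autosomes these shares were 64.98% and 10.97%. The strongest lay inside Uhrf1bp1, a gene named for binding the chromatin protein Uhrf1 (chr17:27871761-27872261), where KO 1 had a −log10 p of 29.9, KO 2 had 23.4 and the other 6 libraries had no peak. A region 390 bp from Dynlt1b, a light chain of the dynein motor and a member of the t complex (chr17:6429015-6429264), had at least 21.3 in both KO libraries and was likewise absent from the other 6. Another lay inside Hmga1, an architectural chromatin protein. A region inside Dnah8, an axonemal dynein (chr17:30809292-30809775), was absent only from WT, since all 4 dLGN libraries had it with −log10 p of 14.4 to 18.7.

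Further regions among the 10 strongest KO-only regions lay inside BC051142, near Lemd2 and Fgd2 or more than 50 kb from any protein-coding gene. At the last of these kinds, chr17:27304809-27305540 had 20.4 and 24.4 in KO, no peak in WT and a peak in 3 of 4 dLGN libraries. Regions found in both KO libraries and none of the other 6 made up 1.74% of all autosomal regions and 194 window regions (4.09%). Besides those named, the strongest included regions inside Pacsin1, which acts in synaptic vesicle endocytosis, inside Rnf8, a ubiquitin ligase of the DNA damage response, inside Rab40c and near Brpf3. Their −log10 p in KO was 10.4 to 13.4.

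The 59 WT-only regions had a median −log10 p of 3.37 in the weaker WT library. The kept lists of KO end at −log10 p of 3.69 and 3.18 and those of WT at about 2, so this median cannot be set against that of the KO-only regions. Of the 59, 9 (15.3%) were found in all 4 dLGN libraries, against 32.02% of the WT-only regions on the other autosomes. The strongest lay 2996 bp from Npw, which encodes neuropeptide W (chr17:24654087-24654578), with 12.46 and 14.8 in WT, none in KO, and a peak in 2 of the 4 dLGN libraries. Others lay near Map3k4, a stress-activated kinase (10.8 and 9.98 in WT), and Fgd2, a guanine nucleotide exchange factor (8.42 and 9.78 in WT). Regions lay also inside Gabbr1, a subunit of the GABA-B receptor (5.99 and 5.55 in WT), Abcg1, a cholesterol exporter (5.77 and 6.48), Wiz and Mdga1. Regions found in all 6 other libraries and in neither KO library made up 0.530% of all autosomal regions and 9 regions, or 0.190%, of the window. The Tnfrsf12a promoter was 1 of these 9, and the others lay in or near 2300002M23Rik, Wdr27, Ddr1, Zfp213, Fgd2, Ilrun, Gabbr1 and Cd2ap. At Cd2ap, KO 2 had a peak of −log10 p 2.78 that fell outside its kept list, above the 2.40 that was kept in WT 2. At Wiz, KO 1 had a peak of 3.67 just outside its kept list. The region near Zfp213 (chr17:23542854-23543166), 13756 bp from that zinc finger gene, had only 4.79 and 4.63 in WT but 26.7 to 58.4 in the dLGN libraries.

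Among the strongest regions of the window a few promoters shifted far more than the rest. At the Zfp994 promoter (chr17:22225095-22226102) the −log10 p was 67.1 and 52.6 in KO, 205 and 162 in WT, 216 and 195 with PLX5562 chow and 361 and 292 with control chow. Its rank was 15002 and 16413 in KO and 3365 and 3141 in WT. Both KO libraries were thus the lowest of the 8 by −log10 p and lay outside the range of the other 6.

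At the Gm7072 promoter (chr17:22314321-22315286) the −log10 p was 61.6 and 57.8 in KO, 199 and 174 in WT, 186 and 310 with PLX5562 chow and 407 and 296 with control chow, and its rank was 16504 and 14595 in KO and 3526 and 2786 in WT. These are the promoters whose sequences were 83.0% identical, and the KO libraries were the lowest of the 8 at both. The mean shift in log2 rank, WT minus KO, was −2.27 at Zfp994 and −2.31 at Gm7072. No other region on any autosome was within the first 5000 ranks of both libraries of 1 genotype and beyond rank 10000 in both of the other, a rule chosen after these values were seen. Under looser limits the window was not alone: with ranks 10000 and 20000 in place of 5000 and 10000 the rule gave 1 window region and 7 on the other autosomes, and with 20000 and 40000 it gave 3 and 45.

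At the Rgmb promoter (chr17:15825617-15827212) the −log10 p was 288 and 270 in KO, 440 and 320 in WT, and 444 to 617 in the dLGN libraries. Its ranks were 1955 and 1419 in KO and 488 and 576 in WT, a shift of −1.65. In the dLGN libraries they were 1267 to 1623, so by rank KO overlapped dLGN and the WT libraries lay apart. At the Gm51425 promoter (chr17:17004584-17005693) the order was the opposite, with 436 and 389 in KO, 287 and 206 in WT and 291 to 437 in dLGN. Its ranks were 385 and 372 in KO and 1768 and 1994 in WT, a shift of 2.31. In the dLGN libraries they were 2732 to 3317, so by rank both KO libraries lay above all others. Its fold enrichment overlapped between genotypes, with 21.5 and 20.7 in KO and 21.3 and 19.8 in WT. At Zfp994 the fold enrichment was 11.3 and 9.55 in KO and 23.6 and 23.5 in WT. The Ppp2r1a region (chr17:20944815-20946010) ranked 235 and 211 in KO and 258 and 329 in WT. By rank its genotypes did not overlap either but differed little, with a shift of 0.39.

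**Figure D5:**
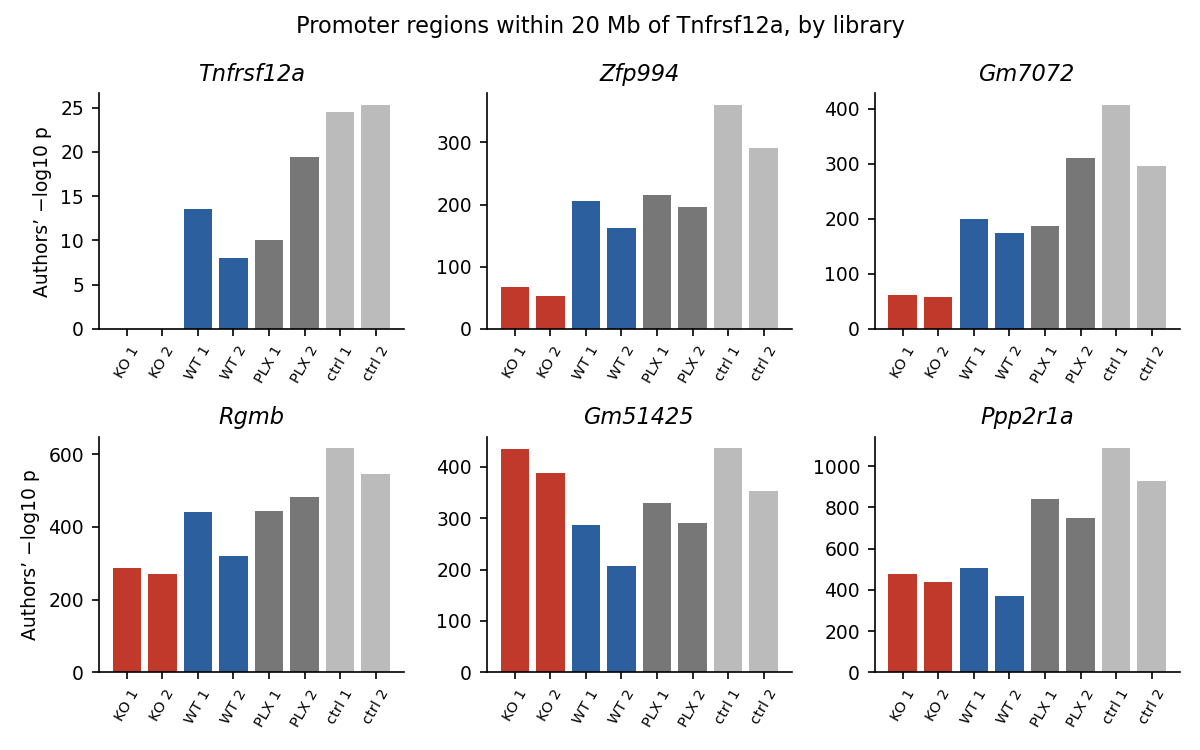
The authors' −log10 p (y axis, linear, a separate scale per panel) at 6 promoter regions of the window, 1 bar per library (x axis; no bar where the list has no peak). At Tnfrsf12a the KO libraries have no peak, at Zfp994, Gm7072 and Rgmb they have the lowest −log10 p of the 8, and at Gm51425 they lie above WT. This value grows with depth, and by rank the KO libraries overlap the dLGN libraries at Rgmb and lie above them at Gm51425.

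How often such shifts occurred was counted after these promoters were seen, so the counts restate them and are no separate evidence about the window. Of regions that ranked within the first 5000 in a section library, 4 of 131 in the window had non-overlapping ranks and a mean shift of 1.5 or more in log2 rank, against 55 of 5642 on the other autosomes (0.975%) and 0 of 124 on the rest of chromosome 17. With a shift of 2 or more, a ratio of 4 in rank, the counts were 3 of 131 (2.29%), 10 of 5642 (0.177%) and 0 of 124. Within the first 20000 ranks they were 7 of 424 (1.65%), 45 of 25538 (0.176%) and 0 of 516, and 5 of these 7 window regions ranked higher in KO. Apart from the promoters named, the largest shifts towards KO lay 34944 bp from Ddr1, a collagen receptor kinase (chr17:35739218-35740154), with 75.9 and 62.0 in KO and 13.6 and 9.21 in WT, inside Tekt4, a protein of sperm flagella (30.7 and 37.7 against 7.20 and 3.29), near Luc7l and near Gm2808. Towards WT they lay near Adgrf1 and near Fpr2, a formyl peptide receptor (chr17:17909653-17910777), with 121 and 77.8 in KO and 192 and 147 in WT.

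Other strong promoters of the window kept their place. The region at Prdm9, the methyltransferase that directs meiotic recombination (chr17:15563852-15564860), ranked 630 and 554 in KO and 595 and 281 in WT. The region at Mmut and Cenpq, the genes of methylmalonyl-CoA mutase and of a centromere protein (chr17:40934179-40935198), ranked 531 and 425 in KO and 456 and 471 in WT. At Zfp960, a zinc finger gene (chr17:17063491-17064645), the ranks were 976 and 1070 in KO and 854 and 920 in WT, and at Rps6ka2, a ribosomal S6 kinase (chr17:7169311-7170587), 614 and 960 against 1385 and 824. Ranks of KO and WT overlapped at Prdm9, Mmut and Rps6ka2 but not at Zfp960.

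The genes of the window were also read by 7 lists, whose members were chosen with earlier results of these data known, so their counts are descriptions. Of 711 protein-coding genes 533 had a region found in a section library, 128 had a KO-only region, 42 a WT-only region and 21 both. In the t complex list, 16 of 101 regions (15.8%) were KO-only and none was WT-only, against 7.20% and 1.51% over the window. They lay at Afdn, an adhesion protein (7 of 33 regions), Tcte2 (5 of 26), Dynlt1b (2 of 11), Dynlt1a (1 of 4) and Sft2d1 (1 of 6). The number of kept regions at Afdn was 24 and 17 in KO and 9 and 8 in WT, and 5 to 10 in dLGN. Dynlt1a and Dynlt1b are near-identical copies, and values at both are uncertain as far as reads of such copies cannot be placed.

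Among neuronal and synaptic genes, 73 of 860 regions (8.49%) were KO-only and 10 (1.16%) were WT-only, and of the 240 regions in all 4 section libraries KO ranked higher at 103 (42.9%) and WT at 22 (9.17%). These values lie near the 7.20% and 1.51%, and the 36.6% and 12.0%, of all window regions. Btbd9, a gene linked to restless legs syndrome, held 10 KO-only regions of 99 and no WT-only region, with 72 and 50 in KO and 28 in each WT library. Grm4, a metabotropic glutamate receptor, held 6 of 31, and Pde10a, a phosphodiesterase of striatal neurons, held 7 of 112 with 1 WT-only region. Arid1b, a subunit of the BAF chromatin remodeller, had nearly equal numbers, with 7 KO-only and 6 WT-only regions of 136.

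The MHC class I and II list had 7 KO-only regions and 1 WT-only region of 81, shares of 8.64% and 1.23% near the window's 7.20% and 1.51%, and KO ranked higher at 18 (46.2%) and WT at 2 (5.13%) of 39, beside 36.6% and 12.0% over the window. The KO-only regions lay at H2-DMb1 (2), H2-T23, H2-Eb2, H2-Ob, H2-DMa and H2-DMb2, most of them chains of class II molecules or of the factors that load peptide onto these, and the WT-only region lay at H2-T24. Among TNF, lymphotoxin and complement genes 3 of 25 (12.0%) were KO-only, at Nfkbil1 (2) and Btnl2, and none was WT-only. These regions are too few to set apart from the window's 7.20% and 1.51%. Oligodendrocyte and astrocyte genes had 4 KO-only (2.67%) and 7 WT-only (4.67%) regions of 150, beside 7.20% and 1.51% over the window. Qk, an RNA-binding protein of myelinating cells, held 2 and 5 of these. By rank KO was higher at 10 (23.3%) and WT at 7 (16.3%) of 43 regions. These shares stand beside 36.6% and 12.0% over the window and 19.8% and 20.2% over all autosomes. Among growth control genes 8 of 174 were KO-only (4.60%) and 1 was WT-only (0.575%). These shares stand beside 7.20% and 1.51% over the window and 3.69% and 2.27% over all autosomes. Of the KO-only regions 3 lay at Igf2r, the imprinted receptor that clears insulin-like growth factor 2. By rank KO was higher at 19 (37.3%) and WT at 9 (17.6%) of 51 regions of this list, beside 36.6% and 12.0% over the window. The 85 chemosensory and formyl peptide receptor genes of the window had 23 regions at 11 genes, with none KO-only or WT-only. Of 9 ranked regions WT ranked higher at 4 (44.4%) and KO at 2 (22.2%), beside 12.0% and 36.6% over the window. These numbers are too small to set the list apart from the window.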

How the data were processed

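ATAC-seq peaks of 8 mouse brain libraries were used as deposited. The authors processed reads with the ENCODE ATAC-seq pipeline (mm10, multimapping 0, p threshold 0.01, at most 300000 peaks per list) and called peaks per library, per the deposited pipeline instructions in the labels and list names. The submitters' processing notes name deepTools 3.5.0 without a role, and which aligner and peak caller were used is not given in the sources used here. Each deposited peak has a score, a fold enrichment as a ratio over background, and a p-value and q-value given as −log10. These are the authors' own values and served only to order or filter peaks of 1 list and to describe single peaks. No read counts were used, so no count test was run and depth is unknown.

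Peaks that overlapped within a library were merged, keeping the highest −log10 p, and lists were cut to 192168 regions. A region was present in a library when it overlapped a kept region by 1 bp or more. Regions were assigned by their centre to the nearest protein-coding gene within 50 kb in RefSeq GRCm38.p6, and promoters came from the same release. Python 3.11.15, numpy 2.4.6, pandas 2.3.3 and scipy 1.17.1 were used. Comparisons between KO and WT used the exact permutation test over the 3 divisions of 4 libraries. The measures of separation were tested on simulated data.

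Named regions are those within 10 kb of Tnfrsf12a (of which the weak ones at Cldn6 and Cldn9 are given no values), the 10 strongest KO-only and WT-only, the 5 largest rank shifts each way, the 10 strongest present or absent only in KO, the 5 strongest in all 8, and list members with separated regions (examples only). Values at some of these genes are not reported here. The members, lists and rules were chosen with earlier results of these data known. Alternatives changed list length, q limit, rule for absence, overlap, region width, union, window size, replicate block and the libraries used. Weighting by gene density and the counts of large rank shifts were added after seeing the data.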

Additional observations from a re-analysis of the deposited data

How the results depend on the processing

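The window exceeded the other autosomes in the share of separated regions, the share ranked apart and the Jaccard gap under each alternative that gave a value (43 of 43 values positive). With same-numbered KO and WT libraries compared as a replicate block, the share ranked apart exceeded by 5.34 points. The Jaccard gap exceeded by 0.0502, against 0.0439 without the block. The block leaves the rule for KO-only and WT-only regions the same, so their numbers and the separated share could not change. The labels do not pair the samples, and deviations of same-numbered KO and WT libraries had a correlation of 0.19 over 100501 regions (2 pairs). With 5 Mb either side the share ranked apart exceeded by 11.9 points. Leaving out 1 library gave 0.274 to 9.05 points for separated regions (0.337 without WT 1 and 0.274 without WT 2), 1.49 to 6.93 points for regions ranked apart, and 0.0322 to 0.0630 for the Jaccard gap; with 1 library on a side, presence and order are less strict. In these 4 cases KO-only regions numbered 470 to 914 and WT-only regions 108 to 314, since fewer libraries had to concur. Shorter lists gave 85 (50000 regions) and 160 (100000 regions) KO-only regions and 15 and 28 WT-only regions. Smaller windows gave 155 (10 Mb either side) and 67 (5 Mb) KO-only and 28 and 12 WT-only regions, since they hold fewer regions. A q limit of 0.05 gave 37 WT-only regions. Weighting the other autosomes by gene density, added after seeing the data, left excesses of 2.46 and 7.04 points. Depth is unknown, and with 2 libraries a group the exact permutation test cannot go below 0.33.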
